A study of Mus musculus with 6 samples.

Results

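The genes described here are the ligands, receptors, secreted antagonists and 2 transcriptional targets of Wnt signaling in single cells of the mouse proximal pulmonary artery (PA). They were taken as every symbol of the deposited matrices made of Wnt, Fzd, Sfrp, Dkk or Rspo with a digit after it, together with Wif1, Frzb, Lrp5, Lrp6, Axin2 and Lef1. The rule found 49 of 53647 features. These were 19 Wnt ligands, 4 R-spondins, 10 Frizzled receptors, 2 co-receptors, 10 antagonists, 2 targets and 2 opposite-strand transcripts, Fzd10os and Rspo4os, that carry a receptor's or an R-spondin's symbol only in their names.

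Wnt proteins are secreted lipid-modified ligands that bind Frizzled receptors on nearby cells. With the co-receptors Lrp5 and Lrp6 they stabilize β-catenin, which enters the nucleus and turns on genes with TCF and LEF factors, and through other co-receptors such as Ror1 they steer cell polarity and movement without β-catenin. Secreted Frizzled-related proteins and Wif1 bind the ligands, Dickkopf proteins bind the co-receptors, and R-spondins keep Frizzled receptors at the cell surface. In the lung and its vessels the pathway is known for roles in branching, in smooth muscle and mesothelial development and in pulmonary hypertension.

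Cells came from 6 libraries, each from 1 wild-type C57BL/6J mouse with no transgene or drug treatment, and the libraries fell into 2 young (3 months) and 4 old ones (20, 24, 27 and 28 months). Per the study's methods, young mice came from a commercial breeder and old mice from the same breeder or from an aging colony, and the source of each mouse is not given in the sources used here. The titles mark the mouse of 27 months as male and those of 28 months and of the library here called young 2 as female. For the other 3 libraries they give no sex, and the study's text describes the old mice of 20 and 24 months as males. The study also lists a further young mouse, which is not analysed here. Arteries were cut out with surrounding tissue and digested with collagenase and elastase, so cells of neighboring airway, mesothelium and lymphoid tissue were present beside those of the wall.

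Libraries held 6355125 to 50436562 unique molecular identifiers (UMIs, 1 per captured RNA molecule), and 935 to 4067 barcodes each passed the limits of 500 UMIs, 300 genes and 20% mitochondrial UMIs. Median UMIs per cell were 801.5 to 2162 in the young libraries and those of 20 and 24 months, and 5465 and 8150 in those of 28 and 27 months. Both young libraries and that of 24 months shared 130 to 212 kept barcodes pairwise, where chance would give 0.363 to 1.1, while every other pair shared at most 4. The library of 20 months, a male by the study's text, held 2395 UMIs of the female-specific Xist and 2 of the Y-linked Eif2s3y, against 46 and 1819 in the male of 27 months, so counts of genes called are also given without it. Cell types were named from marker genes with all 49 genes kept out of the clustering. Fibroblasts (FBs), smooth muscle cells (SMCs), blood endothelial cells (ECs) and macrophages (MΦs) each carried at least 1 UMI of all 10 of their own markers in every library with 10 or more cells of the type. Different clusters held most cells of a type in different libraries. Cluster 10 held at least 93.4% of FBs in the young libraries and those of 20 and 24 months, and cluster 1 at least 92.0% in those of 27 and 28 months. SMCs were mainly in cluster 14 in the young libraries and that of 20 months, in cluster 0 at 27 months and in cluster 3 at 28 months.

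Levels are given as CPM (UMIs of a gene scaled to a common total of all UMIs of that cell type in that library), averaged over libraries with equal weight, and a type's sum in a library was used only where it came from 10 or more cells. Because the counts depend on how well each 3′ end is captured, levels are compared between cell types for the same gene and not between genes. Of the 49 genes, 35 had at least 50 UMIs over all kept cells, 12 had 1 to 49 and 2 (Wnt8a and Rspo4os) had 0, for 72344 UMIs in all. Among the 8 cell types with at least 10 cells in 3 or more libraries, the highest mean level of these 35 genes was in SMCs for 9, in mesothelial cells for 8, in ECs for 7, in FBs for 5, in airway epithelial cells for 2, in T or NK cells for 2, and in MΦs and B cells for 1 each. With equal weight per library, few UMIs in a small sum can set the highest type. Rspo2 counted for SMCs at a mean of 8.8 CPM, almost all from 1 UMI (43.9 CPM) in young 2. Its SMC level was above the mesothelial one in 0 of 4 libraries. The heat map of mean levels by cell type shows this division, with ligands mainly in the FB, mesothelial and airway columns and receptors spread over FBs, SMCs, ECs and mesothelium.

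**Figure D1:**
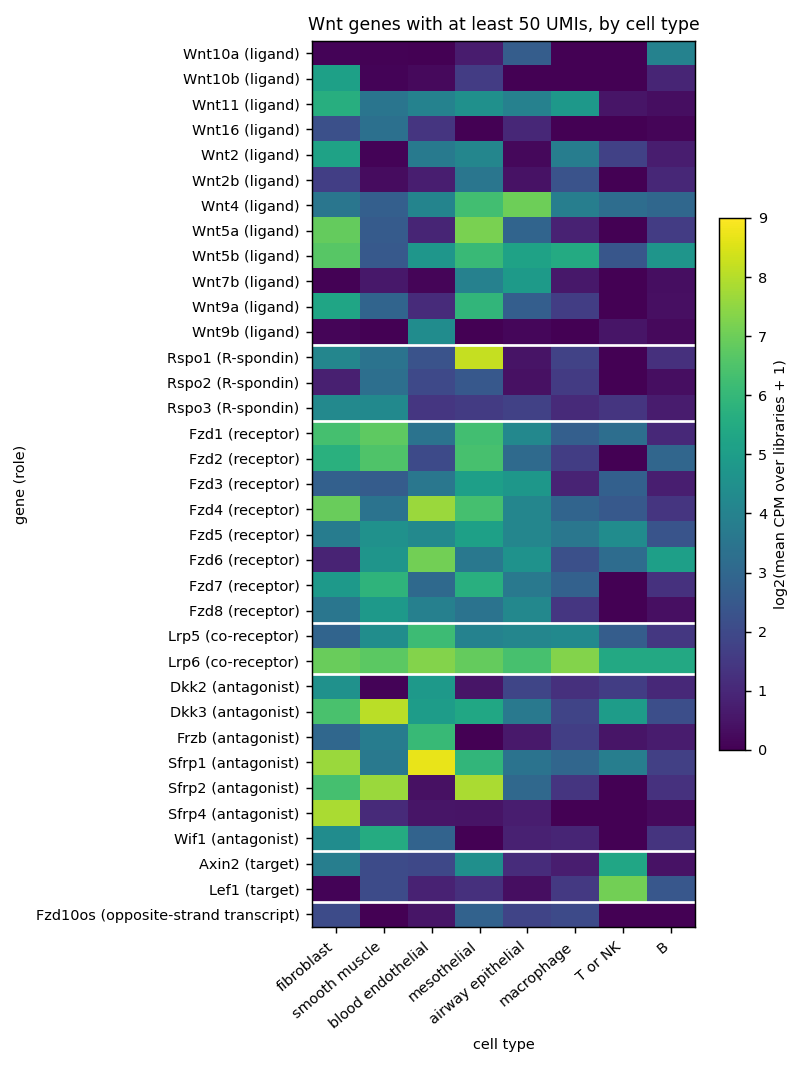
Mean level of the 35 genes with at least 50 UMIs in 8 cell types, as log2 of the mean CPM over libraries plus 1 (color scale); rows are genes grouped by role and columns are cell types. Sfrp4 is high in FBs at a mean of 233.0 CPM and Rspo1 in mesothelial cells at 292.8 CPM, while Lrp6 is above 0 in all 8 types.

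Summed over the ligands, the level was 416.3 ± 101.9 CPM (SD, n = 5) in mesothelial cells, 393.1 ± 167.0 in FBs (n = 6), 227.5 ± 37.9 in airway cells (n = 6), 96.8 ± 57.0 in ECs (n = 6) and 42.4 ± 29.6 in SMCs (n = 5). The non-canonical ligand Wnt5a, known for its part in cell movement and lung growth, was at 144.9 ± 38.2 CPM in mesothelial cells and 117.0 ± 39.8 in FBs, ranges that overlapped, and at 6.5 in the next type, airway cells. In FBs it was at 125.0 and 143.3 CPM in young 1 and young 2 and at 74.9, 59.7, 150.4 and 148.6 CPM at 20, 24, 27 and 28 months. Wnt5a in FBs was therefore lowest in the libraries of 20 and 24 months, and the young values lay between the old ones. Wnt9a, a ligand of joint and blood-stem-cell development, had the same order, with 59.2 ± 17.1 CPM in mesothelial cells (n = 5), 37.7 ± 21.6 in FBs (n = 6) and 6.4 ± 6.6 in SMCs (n = 5).

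Wnt10b, a β-catenin-activating ligand that restrains fat cell formation, was almost confined to FBs among the cells kept, which held 95.2% of its 377 UMIs. Its FB level was 12.5 and 0 CPM in the young libraries and 59.4, 39.8, 60.8 and 28.4 CPM at 20, 24, 27 and 28 months. All 4 old values were above both young ones, but the young FB sums held only 1 UMI of it. Wnt2, which specifies lung progenitors in the embryo, was at 35.8 ± 30.4 CPM in FBs, and Wnt11, a ligand of cell polarity and heart development, at 49.5 ± 49.9 CPM in FBs, 27.1 ± 26.7 in MΦs and 22 ± 11.9 in mesothelial cells. These ranges overlapped for both genes.

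Wnt4 and Wnt7b marked the airway epithelium. Wnt4, a ligand of kidney and reproductive tract development, was at 126.9 ± 43.1 CPM in airway cells (n = 6), 76.8 ± 50.2 in mesothelial cells (n = 5) and 15.6 ± 17.1 in ECs (n = 6). Wnt7b, an epithelial ligand that drives growth of the lung mesenchyme, was at 29.3 ± 7.9 and 14.4 ± 8.8 CPM in airway and mesothelial cells. Wnt16 reached 9.1 ± 9.7 CPM in SMCs, where it had 318 of its 368 UMIs, all in old libraries. The 2 young SMC sums, in which 1 UMI is worth 44.5 and 43.9 CPM, could not show a level of that size. Wnt10a was highest in B cells, at 57.5 CPM at 28 months against 13.6 at 27 months, 2.6 at 24 months and 0 in both young libraries, so the library of 28 months set its mean.

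Wnt5b, close kin of Wnt5a, varied widely between libraries. In FBs it was at 387.5 and 0 CPM in young 1 and young 2 and at 121.4, 19.9, 42.6 and 29.5 CPM at 20, 24, 27 and 28 months. In MΦs it was at 147.8 and 32.1 CPM in the young libraries and at 6.0, 76.4, 1.9 and 3.3 CPM at 20, 24, 27 and 28 months. Its order of libraries thus differed between both types. In the RNA outside cells, taken from barcodes under 100 UMIs, it was at 91.4 CPM in young 1, 47.2 in young 2, 23.4 and 19.3 at 24 and 20 months, and 6.1 and 2.9 at 28 and 27 months. Young 1 was highest there as in FBs and MΦs, but young 2, the next outside cells, had 0 in FBs. The part of free RNA in its levels was not tested.

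Among the R-spondins, Rspo1 was highest in mesothelial cells. This gene, which also guides ovary development, was at 221.9 CPM in mesothelial cells of young 1 and at 240.3, 175.3, 358.4 and 468.0 CPM at 20, 24, 27 and 28 months. In FBs, the next type, it was at 12.5 and 0 CPM in the young libraries and at 15.5, 5.0, 29.5 and 37.1 CPM at 20, 24, 27 and 28 months. The lowest mesothelial library was therefore above the highest FB library. Rspo3, an R-spondin of vessel growth, was at 18.2 ± 20.1 CPM in SMCs (n = 5) and 17.8 ± 12.5 in FBs (n = 6). Its SMC level was 0 in both young libraries, where 1 UMI is worth 44.5 and 43.9 CPM, so these sums could not show a level of that size. Rspo2 had 68 UMIs and Rspo4 had 3.

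Frizzled receptors divided the wall. Summed over the 10 receptors the level was 402.1 ± 130.2 CPM in ECs (n = 6), 377.9 ± 63.4 in mesothelial cells (n = 5), 346.1 ± 127.5 in SMCs (n = 5) and 314.3 ± 74.4 in FBs (n = 6), and 37.2 ± 14.5 CPM in MΦs (n = 6). Fzd1 was highest in SMCs at 108.2 ± 43.4 CPM, Fzd2 at 90.6 ± 60.3 and Fzd7 at 56.3 ± 22.3, each with mesothelial cells or FBs within its range. Fzd4, the receptor of the retinal vessel ligand Norrin, was highest in ECs at 198.5 ± 67.1 CPM, followed by FBs at 121.6 ± 67.0. Fzd6, a receptor of hair and tissue polarity, was at 135.4 ± 66.2 CPM in ECs and at 348.5 CPM in lymphatic ECs, of which 2 libraries had 10 or more. Fzd3 and Fzd5 were highest in mesothelial cells, at 32.6 ± 2.2 and 33.4 ± 7.4 CPM. Fzd8 was highest in SMCs at 27.2 ± 25.0 CPM and, with 1456 of its 1753 UMIs there, ranged from 0 in young 1 to 58.1 CPM at 27 months. In SMCs of young 1, 1 UMI is worth 44.5 CPM. Fzd9 and Fzd10 had 48 and 42 UMIs.

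Among the co-receptors, Lrp5, mutated in heritable bone mass and retinal vessel disorders, was highest in ECs at 70.8 ± 48.3 CPM, with SMCs at 20.4 ± 19.3 and MΦs at 18.2 ± 7.6. Lrp6 was at 158.3 ± 141.6 CPM in MΦs, 158.3 ± 112.1 in ECs and 123.6 ± 49 in FBs, with overlapping ranges. In MΦs Lrp6 was at 69.6 and 48.2 CPM in the young libraries, 125.0 and 34.0 CPM at 20 and 24 months, and 343.1 and 330.0 CPM at 27 and 28 months. The 2 deepest libraries were the 2 highest. They also differed in clusters, as cluster 8 held 85.0% and 74.9% of MΦs at 27 and 28 months. In each other library it held at most 2.3%. The parts of depth and of these clusters were not tested.

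The summed level of the antagonists was 650.4 ± 191.2 CPM in FBs (n = 6), 550.6 ± 260.2 in ECs (n = 6), 534.1 ± 127.7 in SMCs (n = 5) and 329.6 ± 162.9 in mesothelial cells (n = 5), and the genes behind these sums differed. Sfrp4, a secreted Frizzled-related protein of bone remodeling and fibrosis, had 97.2% of its 2754 UMIs in FBs. It was at 75.0 and 477.8 CPM in FBs of the young libraries and at 134.3, 104.5, 260.2 and 346.2 CPM at 20, 24, 27 and 28 months, against at most 3.7 CPM in SMCs of any library. The level varied more within the young than between the groups.

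Dkk3, a Dickkopf family member of smooth muscle and stromal cells that has little effect on Lrp5 and Lrp6, had 85.7% of its 12026 UMIs in SMCs. In SMCs it was at 178.0 and 307.1 CPM in the young libraries and at 177.1, 389.6 and 276.5 CPM at 20, 27 and 28 months, and in FBs at 0 to 160.2 CPM. The lowest SMC library was thus above the highest FB library. Wif1, which binds Wnt ligands directly, was also highest in SMCs on average over libraries, at 45.5 ± 30.9 CPM against 19.9 ± 34.2 in FBs, where the library of 20 months (87.8 CPM) was far above the rest (0 to 18.9 CPM). With all libraries pooled the order was reversed, at 19.2 CPM in FBs and 17.6 CPM in SMCs. At 28 months 91 Wif1 UMIs of FBs lay in sub-clusters that were shallow or carried another type's name or markers (described below). Wif1 was at 72.5 CPM in them, against 1.70 CPM in Pi16-like FBs and 2.65 CPM in the remaining FBs. At 27 months such sub-clusters held 2 Wif1 UMIs and the remaining FBs 35. Their part in the pooled order and in the contrast of FBs with SMCs was not tested.

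Sfrp2, a promoter of collagen maturation and stromal growth, was at 228.9 ± 171.9 CPM in mesothelial cells (n = 5), 197.6 ± 51.7 in SMCs (n = 5) and 81.3 ± 70.4 in FBs (n = 6). In mesothelial cells it ran from 36.0 CPM at 27 months to 505.0 CPM at 24 months, and mesothelial cells were above SMCs in 2 of the 4 libraries with both. Sfrp1, an antagonist of the endothelium and stroma, was at 418.4 ± 227.0 CPM in ECs and 201.3 ± 101.9 in FBs. ECs were above FBs in 5 of 6 libraries, and that of 24 months had the reverse order, with 148.2 CPM in ECs and 288.6 in FBs. Frzb, a further Frizzled-related protein first found in cartilage, was at 66.5 ± 42.0 CPM in ECs, with 0 in young 2 and 34.9 to 105.9 CPM in the other libraries. Dkk2 was at 27.6 ± 16.7 CPM in ECs and 22.2 ± 20.6 in FBs. Dkk1, Dkk4 and Sfrp5 had 8, 6 and 16 UMIs.

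The targets were low in the wall. Axin2, the feedback inhibitor that β-catenin signaling induces, was at 39.0 ± 28.6 CPM in T or NK cells (n = 5), 21.6 ± 13.4 in mesothelial cells (n = 5) and 13.6 ± 8.0 in FBs (n = 6). Lef1, a nuclear partner of β-catenin and a T cell developmental factor, was at 136.1 ± 97.2 CPM in T or NK cells and at most 4.4 CPM on average in any other of the 8 types.

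**Figure D2:**
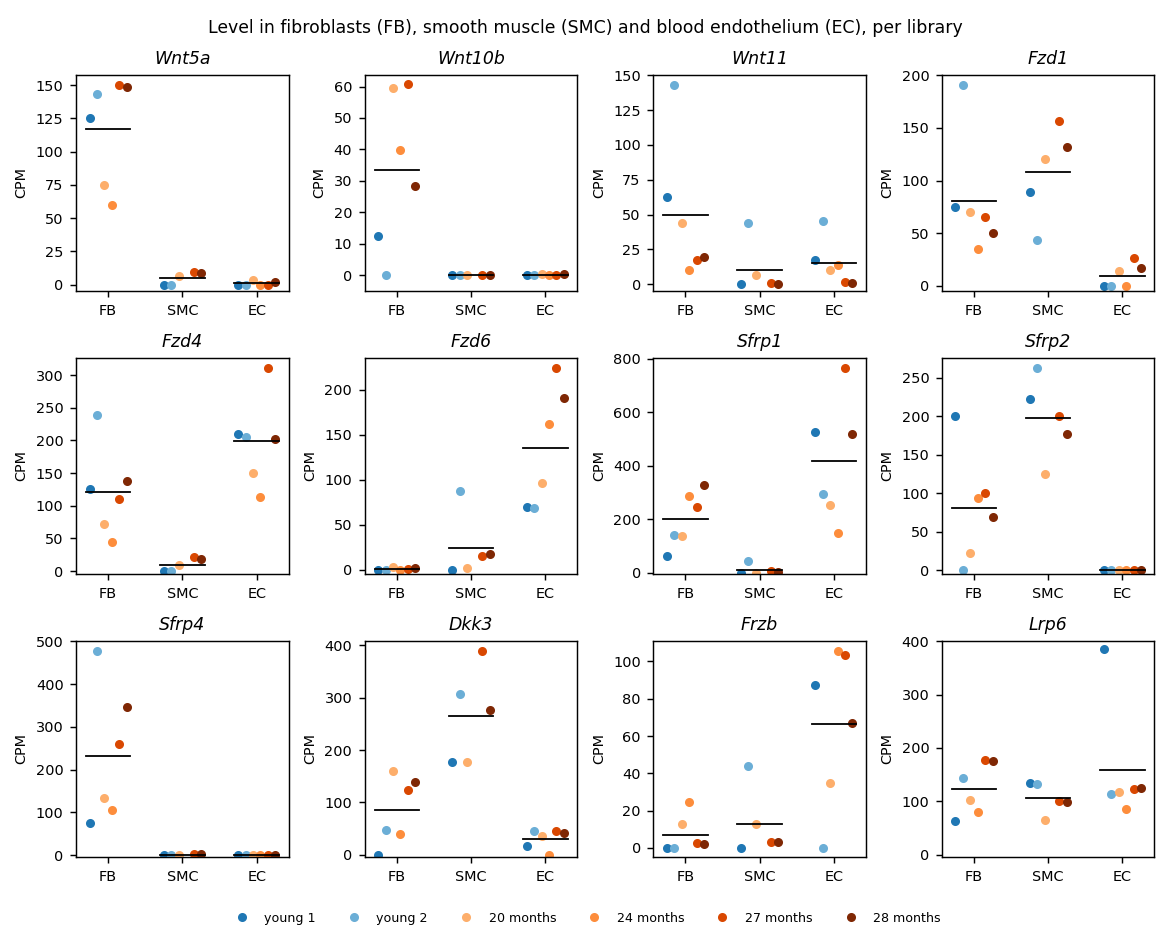
Level of 12 genes in CPM (vertical axis) in FBs, SMCs and ECs, with 1 point per library, colored by library, and a black line at the mean over libraries. Points of Sfrp4 lie at 75.0 to 477.8 CPM in FBs and at most 3.7 CPM in SMCs, and those of Dkk3 at 177.1 to 389.6 CPM in SMCs and at most 160.2 CPM in FBs.

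Cell types were compared within the same libraries to ask whether these differences exceeded the spread between mice. The test was edgeR's quasi-likelihood test on summed counts with the library as a block. Benjamini-Hochberg adjustment ran over all genes tested, with a threshold of 0.05. The spread used for a gene was estimated in part or wholly from other genes. An SE can therefore understate that gene's own spread between mice. A gene was tested where over 5% of cells of either type held it in at least 3 libraries. It could thus enter a contrast through the type where it is high. Between FBs and SMCs 17 of the 18 testable genes passed, where 48.2% of all tested genes did. Of these, 10 were higher in FBs, as were 31.8% of all genes, and 7 in SMCs, as were 16.4%, and the largest adjusted p among the 17 was 0.029 (n = 5 libraries). Between FBs and ECs 15 of 18 passed against 39.7% of all genes, 11 higher in FBs (21% of all) and 4 in ECs (18.7% of all; largest adjusted p 0.00117 with edgeR, n = 6). Between SMCs and ECs 11 of 12 passed against 43.8%, 6 higher in SMCs (21.7% of all) and 5 in ECs (22.1% of all; largest adjusted p 0.000175 with edgeR, n = 5). Not all libraries had the same direction. Every library did for 8 of the 17 genes between FBs and SMCs, 6 of the 15 between FBs and ECs and 8 of the 11 between SMCs and ECs, where a tie at 0 counted against it. In the same order, 14, 11 and 10 passed without the library of 20 months, 16, 17 and 11 with only the 3 libraries that share few barcodes, and 17, 15 and 11 without cells of shared barcodes. The share of all genes that passed is not given for these counts, and it also moved with the libraries used. So did the number of these Wnt genes that could be tested, so a lower count need not mean lost calls. Leaving out each library in turn, 1524 to 3693 of all genes passed between FBs and SMCs. Between FBs and ECs 1814 to 3003 did, and between SMCs and ECs 1605 to 3230. Markers of a neighboring type were present at low levels in these sums. FB markers summed to 2106 to 4228 CPM in SMCs against 28570 or more in FBs, SMC markers to 62.5 to 471.7 CPM in FBs against 29060 or more in SMCs, and their part in the contrasts was not tested.

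The ligands tested stood on the FB side. Against SMCs, FBs held 359 UMIs of Wnt10b against 5 in SMCs and 270 UMIs of Wnt2 against 8, and both genes passed the filter on low values through FBs. FBs were higher by 4.57 ± 0.41 on the log2 scale (SE) for Wnt11, 4.13 ± 0.24 for Wnt5a, 3.03 ± 0.24 for Wnt5b and 2.28 ± 0.24 for Wnt9a. All 6 ligands tested passed, and Wnt2, Wnt11 and Wnt5a were higher in FBs in 5 of 5 libraries. None of the 6 was tested between SMCs and ECs, so each entered the contrast with SMCs through FBs only. ECs did not meet the filter for them in those 5 libraries either. The filter thus favored an FB excess over SMCs and over ECs. Against ECs, where Wnt5a and Wnt9a had 11 and 12 UMIs, the FB excess was 6.02 ± 0.39 for Wnt5a, 4.19 ± 0.37 for Wnt9a, 2.65 ± 0.40 for Wnt11 and 1.38 ± 0.29 for Wnt2. Wnt10b passed too, with 359 UMIs in FBs and 2 in ECs. Wnt5b did not pass against ECs, at 2.37 ± 0.76 on the log2 scale with an adjusted p of 0.0614 from edgeR, and passed in 7 of 14 alternative settings.

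Receptors split by wall layer. Fzd4 was higher in FBs than in SMCs by 2.84 ± 0.22 on the log2 scale and lower in SMCs than in ECs, with a log2 difference of −3.68 ± 0.28, and both held in 5 of 5 libraries. Fzd1, Fzd2 and Fzd7 had the opposite order, with FB to SMC differences of −0.98 ± 0.21, −0.54 ± 0.22 and −1.0 ± 0.22, each in 4 of 5 libraries. They were higher in FBs than in ECs by 1.86 ± 0.28, 4.15 ± 0.41 and 1.42 ± 0.31. SMCs were also above ECs in these 3, by 2.98 ± 0.27, 4.87 ± 0.53 and 2.48 ± 0.31. Fzd6 was lower in FBs than in ECs in 6 of 6 libraries, with a difference of −6.94 ± 0.35 on 13 UMIs in FBs, and lower in SMCs than in ECs in 4 of 5 (−3.56 ± 0.32). Lrp5 went with Fzd6, lower in FBs than in ECs (−3.18 ± 0.26, 6 of 6 libraries) and in SMCs than in ECs (−1.61 ± 0.25, 5 of 5). Lrp6 was the exception among receptors and co-receptors. It passed only between FBs and SMCs (0.84 ± 0.22), a call lost in 5 of 17 alternative settings, as that of Fzd2 was in 4 of 17, and its differences were 0.09 ± 0.26 between FBs and ECs (adjusted p 0.823 with edgeR) and −0.44 ± 0.24 between SMCs and ECs (adjusted p 0.139 with edgeR).

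Antagonists differed in the type that held them. Sfrp4 was higher in FBs than in SMCs by 7.08 ± 0.33 in 5 of 5 libraries and than in ECs, with 2676 UMIs against 4, in 6 of 6. Sfrp4 was not tested between SMCs and ECs, so it too entered its contrasts with SMCs and with ECs through FBs only. Sfrp1 was lower in SMCs than in ECs (−6.54 ± 0.36) and higher in FBs than in SMCs (5.57 ± 0.29), both in 5 of 5 libraries, so that it was low in SMCs alone among the 3 types. The Sfrp1 difference between FBs and ECs was −0.84 ± 0.37, with an adjusted p of 0.105 from edgeR, and it passed in 4 of 18 alternative settings. Sfrp2 was higher in SMCs than in FBs in 5 of 5 libraries, with an FB to SMC difference of −1.15 ± 0.22, and higher than in ECs, with 5534 UMIs against 4. Dkk3 was higher in SMCs too, with −1.03 ± 0.24 between FBs and SMCs and 2.85 ± 0.24 between SMCs and ECs, each in 5 of 5 libraries. Frzb was lower in FBs than in ECs (−4.26 ± 0.54, 5 of 6 libraries) and in SMCs than in ECs (−4.24 ± 0.54, 4 of 5 libraries). Frzb was not tested between FBs and SMCs, so it entered both contrasts through ECs only, and the filter favored an EC excess. Wif1 was higher in SMCs than in ECs, with 501 UMIs against 8, in 5 of 5 libraries and did not pass between FBs and SMCs, at 0.12 ± 0.23 (adjusted p 0.708 with edgeR). It was not tested between FBs and ECs, so it entered the contrast of SMCs with ECs through SMCs only.

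**Figure D3:**
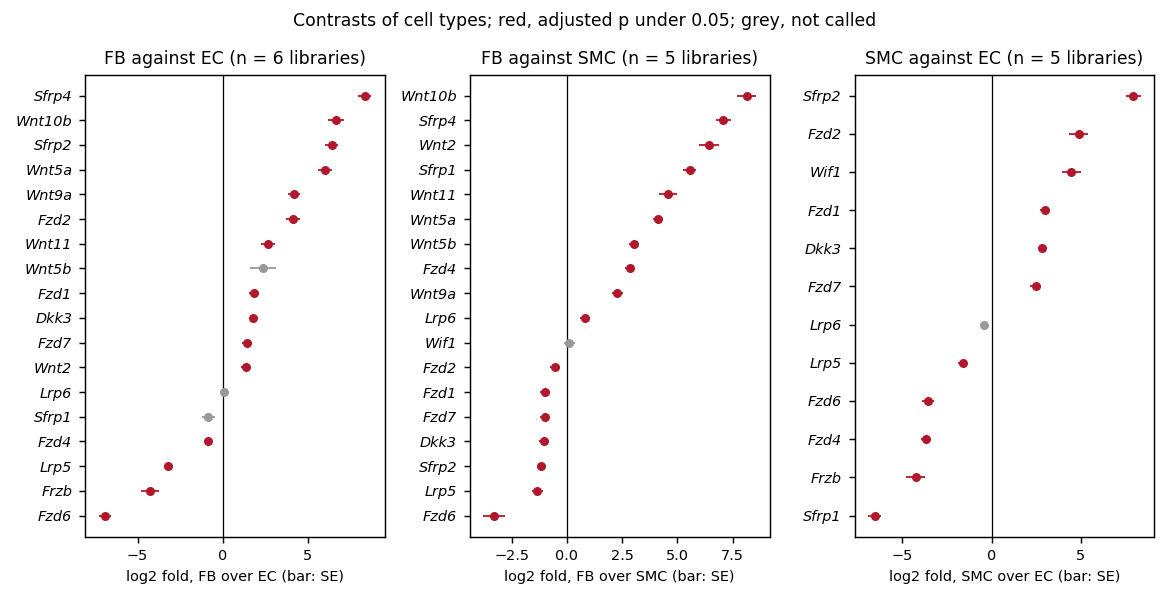
Log2 fold (horizontal axis, bars are standard errors) of each tested gene between FBs, SMCs and ECs within the same libraries. Red points passed an adjusted p of 0.05 and grey points did not, and the panels hold 17 of 18, 15 of 18 and 11 of 12 red points for FBs against SMCs, FBs against ECs and SMCs against ECs.

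Other genes of the pathway, a list of 54 with Wnt secretion, signal transduction and feedback genes, were read in the same contrasts. Between FBs and SMCs 21 of the 37 tested passed, 14 higher in FBs and 7 in SMCs, between FBs and ECs 17 of 32 (7 and 10), and between SMCs and ECs 18 of 32 (8 and 10). These were 56.8%, 53.1% and 56.2% of the list, near the 48.2%, 39.7% and 43.8% of all genes tested. By direction, 31.8%, 21% and 21.7% of all genes were higher in the first type of each pair. In the second type 16.4%, 18.7% and 22.1% were higher. The R-spondin receptor Lgr6 was at 327.1 ± 159.3 CPM in SMCs and 0.76 ± 1.5 in FBs, with 12008 UMIs in the former and 15 in the latter. The Lrp5 and Lrp6 inhibitor Sost, known from bone, was at 1209 ± 661.7 CPM in SMCs and 12.3 ± 23.4 in FBs (−6.64 ± 1.02). Ror1, a Wnt5a co-receptor, was higher in SMCs than in FBs (−1.74 ± 0.26) and than in ECs (4.05 ± 0.30). Gpc3, a cell-surface proteoglycan that binds Wnt ligands, was higher in FBs than in SMCs by 5.96 ± 0.32 and than in ECs by 6.67 ± 0.28, and Dact1, an adaptor of Dishevelled, by 4.40 ± 0.25 and 6.72 ± 0.31. Gpc3 and Dact1 were not tested between SMCs and ECs, and Lgr6 and Sost were not tested between FBs and ECs. Gpc3 and Dact1 thus entered their contrasts through FBs only, and Lgr6 and Sost through SMCs only. The filter favored an excess in those types. The cyclin gene Ccnd1, a proposed target, was at 0.69 ± 0.95 CPM in SMCs, against 51.0 ± 23.6 in FBs and 98.3 ± 40.6 in ECs. β-catenin itself, Ctnnb1, was higher in ECs than in FBs (−1.10 ± 0.17) and SMCs (−0.86 ± 0.24). Wls, the carrier that all Wnt ligands need for secretion, was at 208.6 ± 65.6, 197.2 ± 93.0 and 184.0 ± 57.3 CPM in FBs, SMCs and ECs and passed in no contrast.

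Promoter sequence was available for 31 of the 49 genes, as 37 start sites of RefSeq on the GRCm38.p6 build, and the 250 bases before each start were read. A GC box (GGGCGG on either strand) was in 27 of the 37 promoters, 73.0%, and in 32.7% of all 32851 promoters of that table, and the median GC content was 66.8% against 52.4%. The core of TCF and LEF binding sites (ATCAAAG or TTCAAAG on either strand) was in 3 of 37, 8.11%, and in 7.48% of all, namely before Wnt11, Dkk1 and 1 of the 3 starts of Wnt5b. A TATA box (TATAAA on the strand of the gene) was in 4 of 37 against 7.59% of all. The promoters of 4 genes, each higher in 1 of FBs, SMCs and ECs than in both others, are printed. Of these, Wnt11 had 38.8% of its UMIs in FBs, and its FB range overlapped that of MΦs. All 4 are given 5′ to 3′ on the strand of the gene, with GC boxes and TCF and LEF cores in capitals. They are Sfrp2 (chr3:83766071-83766320, plus strand), highest in SMCs of the wall, Frzb (chr2:80447397-80447646, minus strand) of ECs, and Wnt10b (chr15:98778151-98778400, minus strand) and Wnt11 (chr7:98834862-98835111, plus strand) of FBs.
Sfrp2: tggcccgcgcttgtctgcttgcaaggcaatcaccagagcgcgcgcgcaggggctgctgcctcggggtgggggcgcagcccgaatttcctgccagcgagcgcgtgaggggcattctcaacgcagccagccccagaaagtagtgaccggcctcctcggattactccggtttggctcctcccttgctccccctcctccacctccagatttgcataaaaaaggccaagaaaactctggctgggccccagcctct
Frzb: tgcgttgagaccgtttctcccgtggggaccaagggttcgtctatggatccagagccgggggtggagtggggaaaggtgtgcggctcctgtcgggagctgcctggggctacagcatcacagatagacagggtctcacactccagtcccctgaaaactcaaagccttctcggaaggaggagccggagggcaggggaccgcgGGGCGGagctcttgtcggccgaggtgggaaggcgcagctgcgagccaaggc
Wnt10b: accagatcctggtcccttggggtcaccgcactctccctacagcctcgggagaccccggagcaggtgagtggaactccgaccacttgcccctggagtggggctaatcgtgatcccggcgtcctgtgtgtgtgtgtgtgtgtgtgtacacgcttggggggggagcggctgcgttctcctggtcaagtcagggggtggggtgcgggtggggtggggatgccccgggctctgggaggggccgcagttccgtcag
Wnt11: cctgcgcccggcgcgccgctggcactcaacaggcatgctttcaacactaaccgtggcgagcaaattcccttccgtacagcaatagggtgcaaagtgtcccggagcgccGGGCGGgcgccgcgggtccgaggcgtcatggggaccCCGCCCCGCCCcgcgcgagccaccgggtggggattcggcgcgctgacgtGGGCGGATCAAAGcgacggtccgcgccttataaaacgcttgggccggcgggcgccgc
In the Wnt11 promoter the TCF and LEF core stood 51 bases before the start, directly after a GC box, with a TATA box 29 bases before the start, while neither motif in capitals was found in the Sfrp2 and Wnt10b windows. A match of letters is a description of these windows and not a bound site.

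Within a type, some of the genes split by subset. FBs of 24, 27 and 28 months were divided within each library by the markers of universal adventitial FBs (Pi16, Dpp4 and others), giving 86, 107 and 241 Pi16-like cells, and 131, 387 and 575 other cells that make up the rest of the FB clusters. Sfrp1 was at 108.7, 71.0 and 109.8 CPM in Pi16-like FBs at 24, 27 and 28 months, and at 440.5, 310.5 and 436.0 CPM in the other cells. Dkk3 was at 10.9, 41.3 and 43.6 CPM in the former and 64.2, 153.9 and 187.1 CPM in the latter. Both antagonists were lower in Pi16-like FBs in all 3 libraries, as was Fzd4. Sfrp4, at 163.1, 309.8 and 428.4 against 55.1, 242.3 and 304.9 CPM, and Wnt10b, at 87.0, 126.5 and 36.8 against 0, 36.9 and 24.2 CPM, were higher in Pi16-like FBs in all 3, and so was Wnt9a. No test was made on 3 libraries. Among the other cells were sub-clusters that carried another type's name or markers, or were shallow. At 28 months these were 14 cells named erythroid, 12 named chondrocyte, 111 with 3 pericyte markers raised and 132 led by Lyz2 and Cd74, and at 27 months 22 named smooth muscle and 78 of low depth. At 24 months the 131 other cells formed 1 sub-cluster with 4 of the 5 erythroid markers raised, so no value remains there without them. Without such sub-clusters, an alternative chosen after the data were seen, 287 and 306 other cells remained at 27 and 28 months. Sfrp1 was then at 346.4 and 544.8 CPM in them, Dkk3 at 145.6 and 104.8, Fzd4 at 124.3 and 160.1, Sfrp4 at 215.4 and 245.9, Wnt10b at 32.6 and 27 and Wnt9a at 37.7 and 27.4 CPM, and each stayed on the same side of its Pi16-like value in both libraries. Wnt10b and Wnt9a at 28 months differed little from their Pi16-like levels of 36.8 and 31.7 CPM.

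ECs of 27 and 28 months lay in 3 clusters. Clusters 6 (221 and 550 cells) and 13 (49 and 83 cells) had Vwf and Gja5, genes of large vessels and arteries, among their 10 leading genes, and cluster 19 (25 and 175 cells) was led by Gpihbp1, a gene of capillaries. Sfrp1 was at 831.8 and 623.3 CPM in cluster 6, at 837.9 and 325.6 CPM in cluster 13 and at 0 and 20.0 CPM in cluster 19. Frzb was at 110.5 and 80.8 CPM in cluster 6, and at 154.4 and 40.7 CPM on 7 and 3 UMIs in cluster 13. Dkk2 was at 22.5 and 69.5 CPM in cluster 6, and at 22.1 and 122.1 CPM on 1 and 9 UMIs in cluster 13. Both genes had 0 UMIs in cluster 19, which was the lowest of the 3 clusters in all 3 antagonists. Fzd6 was lowest there too, at 83.9 and 71.2 CPM against 240.4 and 214.6 in cluster 6 and 154.4 and 162.8 in cluster 13. Fzd4 had no common order, at 324.1 and 196.3 CPM in cluster 6, 176.4 and 95 in cluster 13 and 239.6 and 244.9 in cluster 19.

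**Figure D4:**
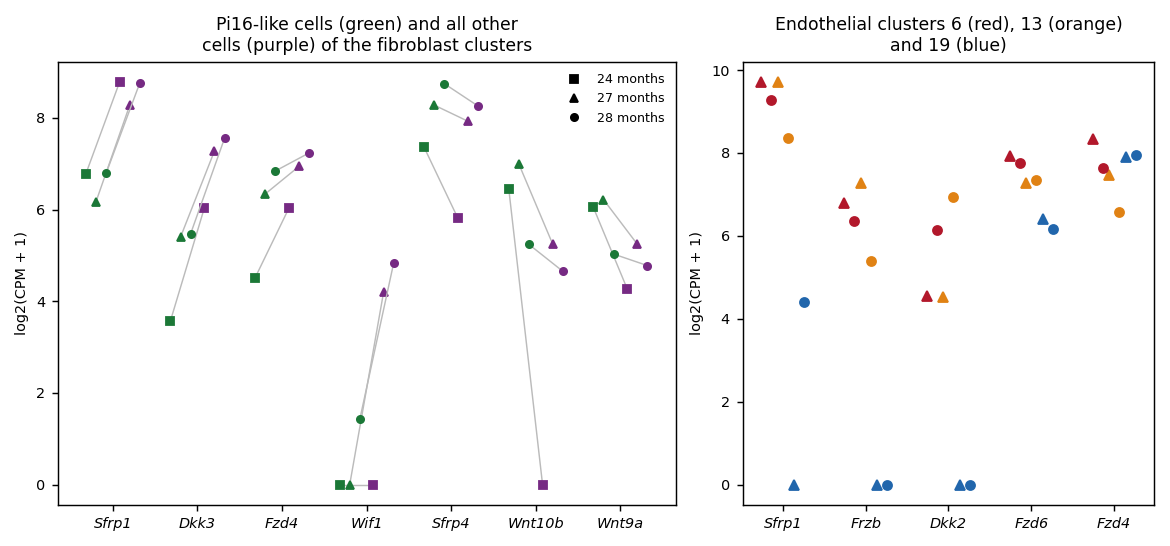
Left, level of 7 genes as log2 of CPM plus 1 in Pi16-like cells (green) and all other cells of the FB clusters (purple) in 3 old libraries, with a line joining both subsets of a library. Right, level of 5 genes on the same scale in EC clusters 6 (red), 13 (orange) and 19 (blue) at 27 and 28 months, marked by library as on the left, where Sfrp1 is at 325.6 CPM or more in clusters 6 and 13 and at most 20.0 CPM in cluster 19.

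The comparison of old with young mice asked whether these genes change with age within a type. None of the genes tested passed in any of the 4 types with edgeR's quasi-likelihood test after Benjamini-Hochberg adjustment, of 15 tested in FBs, 9 in SMCs, 7 in ECs and 1 in MΦs, where 0.0441% of all genes passed in FBs (0.0147% higher and 0.0294% lower in old) and 0% in the other types. Of these 32 tests 7 had an unadjusted p under 0.05 with edgeR (3, 1, 3 and 0 in FBs, SMCs, ECs and MΦs). In the same order, so had 427 of 6797, 520 of 6647, 347 of 5863 and 309 of 5842 of all genes tested. DESeq2 gave 3, 0, 1 and 1 such tests in FBs, SMCs, ECs and MΦs. The counts over all genes with DESeq2 are not given, so these cannot be set against them. Counts were also simulated from the mean levels and depths of these libraries. Their spread between libraries was assumed, the same for every gene, and not estimated from the data. The test recovered at most 7.5% of genes changed 4-fold in any of the types and at least 83.5% of those changed 16-fold. At the assumed spread, most changes of 4-fold were therefore not detectable with this number of libraries. Leaving out each library in turn, that of 20 months included, also left 0 of these Wnt genes past the threshold. Of the 54 other pathway genes, 30, 28, 25 and 17 were tested in FBs, SMCs, ECs and MΦs, and 0 passed with edgeR, with 1, 1, 0 and 0 at an unadjusted p under 0.05 (Vangl1 in FBs and Prickle2 in SMCs). Young sums were small, with 91 and 29 FBs, 25 and 33 SMCs, and 83 and 62 ECs, and 1 UMI was worth 12.5 and 47.8 CPM in FBs of young 1 and young 2. The smallest p an exact permutation test of 2 against 4 libraries can give is 0.133. Markers of neighboring cells also differed between the groups in these sums. The 7 mesothelial markers summed to 47.8 and 112.5 CPM in young FBs and 23.3 to 42.6 CPM in old FBs, with 1 to 2 and 2 to 7 of them detected, and to 35.0 and 68.4 CPM against 7.54 to 14.4 CPM in ECs, with 1 and 1 to 7 detected. The 10 airway markers summed to 445.1 and 1843 CPM in young SMCs and 51.7 to 231.5 CPM in old SMCs, with 4 to 7 and 7 to 10 detected. The 7 cardiomyocyte markers summed to 5385 CPM in SMCs of young 1, with all 7 detected, and to 833.6 CPM in young 2. In old SMCs they summed to 727.6 to 1085 CPM. The 7 chondrocyte markers summed to 667.6 and 43.88 CPM in SMCs of young 1 and young 2, against 28.03 to 192.4 CPM in old SMCs. For both lists only young 1 lay above the old range. The 5 erythroid markers ran from 20.9 to 27141 CPM in old FBs against 112.5 and 382.2 CPM in young ones. Their part in the old to young differences was not tested.

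In FBs the 3 smallest unadjusted p belonged to Dkk3, Wnt11 and Sfrp1. Dkk3 had 1 UMI in the young FB sums and was at 0 and 47.8 CPM there, against 160.2, 39.8, 123.9 and 139.1 CPM at 20, 24, 27 and 28 months. Its pooled level was 13.4 times higher in old FBs, with a 95% counting interval of 2.40 to 529.5, and its adjusted p was 0.711 with edgeR. The library of 24 months lay between both young ones. Sfrp1 was at 62.5 and 143.3 CPM in the young and 139.5, 288.6, 246.8 and 326.9 CPM in the old libraries of 20, 24, 27 and 28 months, a log2 difference of 1.56 ± 0.61 (SE, adjusted p 0.711 with edgeR) with 3 of 4 old libraries above both young ones. Wnt11 was at 62.5 and 143.3 CPM in the young and 43.9, 10.0, 17.5 and 19.9 CPM in the old, with all old values below both young ones, and its log2 difference was −1.93 ± 0.74 (adjusted p 0.711 with edgeR).

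Ranges of old and young FBs did not overlap for 4 of the 15 genes, a share near the 24.5% of all genes tested. They were Wnt11 and Fzd1, lower in old FBs as were 7.55% of all genes, and Fzd2 and Wnt10b, higher as were 17.0%. Fzd1 was at 75.0 and 191.1 CPM in the young and 34.8 to 69.8 CPM in the old, but its log2 difference of −0.94 ± 0.60 turned to 1.0 with cells of at least 1000 UMIs and 500 genes. Fzd2 was at 37.5 and 0 CPM in the young and 39.8 to 111.2 CPM in the old, with 3 UMIs in the young sums and a ratio of 2.89 (95% counting interval 0.986 to 14.1), and Wnt10b had a ratio of 4.11 (0.733 to 162.9) on 1 young UMI. Both intervals include 1. Over the 15 genes the median log2 difference was −0.24 and over all genes tested in FBs it was 0.20.

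In SMCs, where the library of 24 months had only 4 cells and was left out, ranges did not overlap for 4 of 9 genes, against 34.2% of all genes tested, with 2 of the 4 lower (12.2% of all) and 2 higher (22% of all) in old SMCs. Sfrp2 was at 222.5 and 263.3 CPM in the young libraries and 124.7, 200.3 and 177.2 CPM at 20, 27 and 28 months. Its log2 difference was −0.18 ± 0.61 (adjusted p 0.966 with edgeR). Lrp6 was lower in old SMCs too (65.6 to 101.2 against 131.6 and 133.5 CPM), and Fzd1 was higher (120.3 to 156.3 against 43.9 and 89.0 CPM, adjusted p 0.639 with edgeR). The young values stood on 3 UMIs each for Lrp6 and on 1 and 2 UMIs for Fzd1. With no filter on genes the differences of Sfrp2 and Lrp6 turned to 0.52 and 0.48, and over all genes tested in SMCs the median log2 difference was 0.49. Lrp5 was at 0 in both young libraries and at 26.2 to 39.6 CPM in the old. The level that 3 UMIs would give in the young SMC sums, 66.3 CPM, is above the old pooled level of 36.7 CPM, so no fold is given.

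In ECs ranges did not overlap for 2 of 7 genes, against 19.9% of all genes tested, and both were higher in old ECs, as were 11.9% of all genes. Fzd6 was at 70.0 and 68.4 CPM in the young libraries, on only 4 and 3 UMIs. It was at 96.8, 162.4, 224.4 and 190.4 CPM at 20, 24, 27 and 28 months, a log2 difference of 1.30 ± 0.57 (adjusted p 0.837 with edgeR). Lrp5 was at 35.0 and 22.8 CPM in the young, on 3 UMIs, and 63.2, 42.4, 134.8 and 126.7 CPM in the old. Its ratio on pooled UMIs was 3.62, with a 95% counting interval of 1.23 to 17.6. That interval leaves out the spread between mice, and Lrp5 did not pass the adjusted threshold. Lrp6 was at 385.1 CPM in young 1 and 84.7 to 125.3 CPM in the other 5 libraries, so its log2 difference of −1.13 ± 0.51 rested on 1 library and was 0.026 without it. Over all genes tested in ECs the median was 0.18. Without cells whose barcode was kept in more than 1 library, 0 of the EC genes had an unadjusted p under 0.05 in place of 3. In MΦs Lrp6 alone was tested, at 1.59 ± 0.84 on the log2 scale (adjusted p 0.800 with edgeR), and its old and young ranges overlapped (16.8% of all genes tested had ranges that did not).

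**Figure D5:**
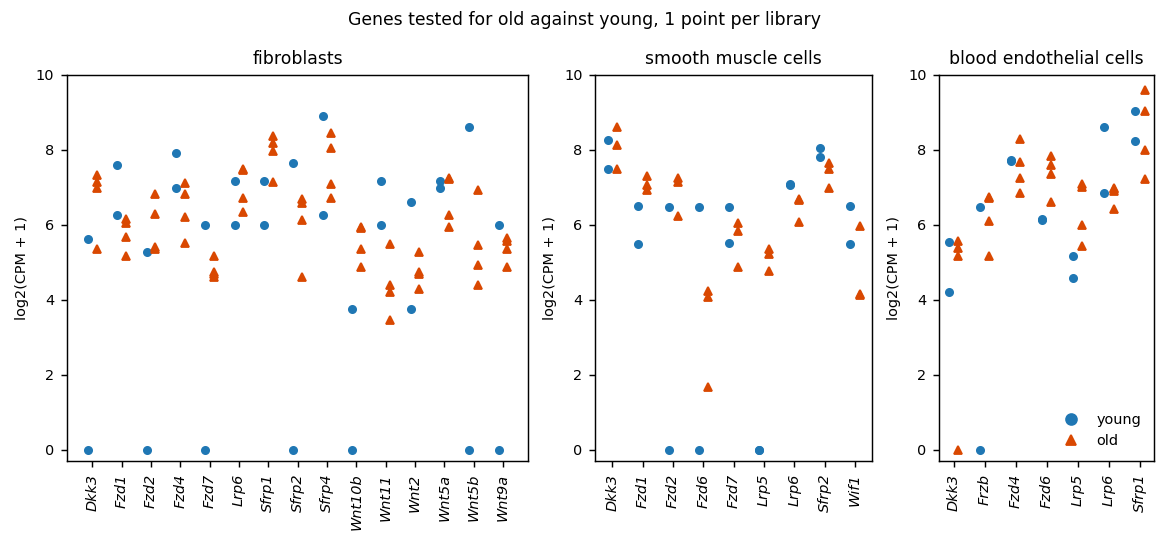
Level of each gene tested for old against young, as log2 of CPM plus 1 (vertical axis), with 1 point per library (blue circles young, orange triangles old) in FBs, SMCs and ECs. None passed an adjusted p of 0.05, and triangles lie apart from circles for 4 of 15, 4 of 9 and 2 of 7 genes.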

How the data were processed

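Single-cell RNA of 6 mouse libraries (2 young, 4 old, each 1 mouse) was analysed. The authors trimmed reads with cutadapt, aligned and counted them with STARsolo on GRCm38.p6, and deposited raw UMI counts for each gene in each barcode, not normalized. Versions of these tools are not given in the sources used here. Most versioned gene identifiers did not match the annotation at hand, so symbols of the files are used and coordinates are given only for RefSeq promoters.

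Of 15622 barcodes passing the limits, 311 doublets were removed (scrublet per library, or the top share expected from loading where it marked too few). Clustering used scanpy 1.11.5 and leidenalg 0.10.2 (2000 variable genes, 40 components, 15 neighbors, resolution 1.0, no batch correction), with the Wnt genes and the pathway list left out. Clusters took names from marker lists. Members and lists were chosen with earlier results of these data known. Values are named for genes tested in a fit and for others with at least 50 UMIs, in the type of highest level.

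Counts were summed per library and type (at least 10 cells) and tested with edgeR 4.0.16 (TMM, robust quasi-likelihood test, Benjamini-Hochberg adjustment) in R 4.3.3, for genes seen in over 5% of a type's cells in at least 3 libraries. Type contrasts had the library as a block, since both sums of a pair come from 1 mouse. The self-test used simulated counts with 200 changed genes and an assumed spread, the same for every gene. DESeq2 1.42.0 was an alternative, beside filters, scalings, thinning to 500 UMIs, covariates and leaving out each library. Alternatives on shared barcodes were chosen after the data were seen. The study's mixed model over cells was replaced by sums. Intervals cover counting error only. The p-values measure a spread between mice that was estimated in part or wholly over other genes, not for each gene alone. Python 3.11.15, scipy 1.17.1 and matplotlib 3.10.9 served the rest.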

Additional observations from a re-analysis of the deposited data

Results flagged for a closer look

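In each group of 4 old libraries the highest or lowest value was compared with the others by Dixon's ratio at its 95% limit, which flags about 1 in 20 groups by chance. Of 55 gene and type groups checked 5 stood out, all single libraries. In FBs of the library of 24 months, Dkk2 was at 49.8 CPM against 7.38, 7.75 and 8.24 in the other old libraries, Fzd8 at 39.8 CPM against 5.17, 7.95 and 10.6, and Axin2 at 24.9 CPM against 13.8, 14.8 and 15.5. In the same order, these values stood on 10, 8 and 5 UMIs at 24 months, and those at 20 months on 3, 2 and 6. The ratio takes no account of counting error. In MΦs of the library of 24 months Wnt5b was at 76.4 CPM against 1.90, 3.30 and 5.95. In ECs of the library of 27 months Wnt2 was at 5.66 CPM against 13.8, 14.1 and 15. The library of 24 months shares barcodes with both young ones, and its part in the 4 values was not tested.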

How the results depend on the processing

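Over all alternatives, the named type differences kept direction and side of the threshold 717 times, lost the call 14 times, gained it 13 times and turned sign 13 times, and those of old against young kept both 191 times and turned sign 5 times. Numbers of genes called differed more. Between FBs and SMCs (17 of 18) they were 10 of 10 tested with edgeR's filterByExpr (42.4% of all genes tested), 28 of 46 with no filter (18% of all), 8 of 9 with cells thinned to 500 UMIs (55.1% of all) and 11 of 18 with no replicate block (22.4% of all). Leaving out each library gave 11 to 17, the lowest without that of 28 months (11 of 14, 34% of all). Between FBs and ECs (15 of 18) they were 7 of 9 (41.6% of all), 27 of 45 (15.6%) and 5 of 7 (53.3%) under the first 3 settings and 11 to 17 leaving out each library, the lowest on 13 tested. Between SMCs and ECs (11 of 12) they were 21 of 44 with no filter (15.3% of all), 6 of 6 thinned (57.2%) and 9 to 11, the lowest on 10 tested. With only the 3 libraries that share few barcodes they were 16 of 17, 17 of 18 and 11 of 12, and the shares of all genes called there are not given. Named differences that changed sign were small or had few counts. Wif1 between FBs and SMCs was at −0.29 with no filter, −0.0081 with no TMM, −0.23 with DESeq2, −0.019 with at least 1000 UMIs and 500 genes per cell, −0.026 in the 3 libraries and −0.47 to 0.16 leaving out each library. Lrp6 between FBs and ECs was at −0.10 with DESeq2, −0.0048 without shared barcodes, −0.12 without the block and −0.20 to 0.33 leaving out each. Old against young, Fzd1 in FBs turned to 1.00 with the stricter filter, and Sfrp2 and Lrp6 in SMCs to 0.52 and 0.48 with no filter. Leaving out each library, Sfrp2 in SMCs ran from −0.30 to 0.014, the highest without young 2, and Lrp6 in ECs from −1.81 to 0.026, the highest without young 1. The cause was not tested. None of the Wnt genes was called between old and young under the alternatives run. Old and young libraries came from different mice, so they were not paired. The stricter filter and the covariate of shared barcodes gave no value for old against young SMCs, since too few young cells or no free comparison remained. In the sex covariate, the sex of 3 libraries came from the study's text, so the library of 20 months stood as male. Its sex genes were mixed, with 2395 Xist and 2 Eif2s3y UMIs beside 205 UMIs of the Y-linked Ddx3y. In FBs of young 1 and young 2, 1 UMI was worth 12.5 and 47.8 CPM.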
